A study of Rattus norvegicus with 4 samples.

Results

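Psat1, Phgdh, Asns, Atf4 and Ddit3 encode enzymes of serine and asparagine synthesis and transcription factors of the amino acid stress response. They were followed in Rat1 fibroblasts, an immortalized rat line, by every probe set of the RG-U34A array whose single annotated gene symbol is one of these names. Of the 5 genes, 4 have a probe set with such a symbol, and together they have 9 of the 8740 probe sets that are not manufacturer controls: 4 for Psat1, 3 for Phgdh, and 1 each for Asns and Ddit3. Atf4 had no such probe set and was not analysed here. The genes were chosen with their values on these arrays known, so that all values below are descriptions.

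The 4 conditions have 1 array each. Rat1-control cells (the control line) carried the empty retrovirus. Rat1-Omomer cells (the Omomer line) carried the one for Omomer, in which Omomyc, a protein that interferes with Myc, is joined to an oestrogen receptor domain that responds to tamoxifen. 4-OHT, which switches Omomer on, was in the medium of both lines. RNA was taken at 0 min, after 48 h in 0.1% serum, and at 90 min of 10% serum. All 4 conditions thus share starvation and 4-OHT, and no array measures cells without 4-OHT. Both lines are stably infected populations, and the infection and the Omomer protein itself cannot be told apart from other differences between them. Conditions were taken from the sample titles, since 1 label field names the other cell line for the Omomer 0 min and control 90 min samples. In such bulk RNA, fewer expressing cells and less RNA per cell cannot be told apart.

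Serine is made from the glycolytic intermediate 3-phosphoglycerate in a short pathway. Phgdh oxidizes it, Psat1 transfers an amino group from glutamate, and a phosphatase, Psph, releases serine, which then feeds glycine, one-carbon and cysteine synthesis. Asns makes asparagine from aspartate and glutamine. When amino acids run short or unfolded proteins accumulate, phosphorylation of the initiation factor eIF2 slows general translation but favours that of the bZIP factor Atf4. Atf4 binds composite sites with C/EBP proteins and is known to activate all 4 genes with a probe set, among them Ddit3 (CHOP), a C/EBP-related bZIP protein linked to stress-induced death. Myc is also known to drive serine synthesis enzymes in proliferating cells.

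Sequences before an annotated transcript start of the 4 genes with a probe set are shown because Atf4 and C/EBP proteins act through a composite site that reads TGATGNAA, and Myc with Max through the E-box CACGTG. RefSeq's promoter table (GRCr8) holds all 5 genes, with 1 start each. Its starts of Psat1 and Asns lie 779 and 555 bases inside the span of the gene, so that these windows are upstream of that start but not of the whole gene. The 250 bases before each start were searched on both strands for TGATGNAA, for its shorter core GATGNAA, which every longer match contains, and for CACGTG. Of all 33469 entries, 3.4%, 10.2% and 5.59% hold them. The stretches below are the last 150 bases before the start, 5′ to 3′ on the gene's strand, with matches in capitals.
Psat1, chr1:222645409-222645558, minus strand: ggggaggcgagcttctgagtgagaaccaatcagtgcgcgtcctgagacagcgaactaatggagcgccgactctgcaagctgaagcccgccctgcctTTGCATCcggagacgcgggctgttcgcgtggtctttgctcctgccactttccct
Phgdh, chr2:188624790-188624939, minus strand: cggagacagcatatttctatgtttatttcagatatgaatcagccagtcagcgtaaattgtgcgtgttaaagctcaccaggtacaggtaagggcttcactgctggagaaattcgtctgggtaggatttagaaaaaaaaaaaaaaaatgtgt
Asns, chr4:36769416-36769565, minus strand: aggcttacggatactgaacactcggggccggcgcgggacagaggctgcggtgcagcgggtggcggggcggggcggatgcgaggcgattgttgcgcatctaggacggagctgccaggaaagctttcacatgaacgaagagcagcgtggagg
Ddit3, chr7:65001545-65001694, plus strand: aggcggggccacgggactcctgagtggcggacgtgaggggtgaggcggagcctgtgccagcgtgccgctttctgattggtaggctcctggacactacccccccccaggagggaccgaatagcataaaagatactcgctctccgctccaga
Psat1 alone of the 4 held the core, from base -54 to -48 before the start and on the opposite strand, and none of them held TGATGNAA or CACGTG. These letters are not in these windows, which says nothing of sites elsewhere.

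Short stretches of 4 further genes of the response are shown as examples chosen for holding a match. Of the 106 genes of this response and its neighbouring pathways that were in the promoter table, TGATGNAA was held by 12, GATGNAA by 16 and CACGTG by 12, and most thus held none of a given motif. Trib3, Slc7a1 and Nupr1 are described below, and Atf4, which has no probe set here, held the E-box.
Atf4, chr7:113684591-113684620, plus strand: ggcgggatCACGTGaccacggtgggaggat
Trib3, chr3:161275539-161275568, minus strand: agattagctcaggtTTACATCAgccgggcg
Slc7a1, chr12:11664443-11664472, plus strand: agggcggcgcgcggcTGATGAAAccggctc
Nupr1, chr1:190645942-190645971, minus strand: tggaaaaaggccagaTTGCATCAgacaggg
The capitals mark CACGTG in Atf4 and TGATGNAA, on either strand, in the other 3. Nupr1 also held CACGTG, outside the stretch shown. All of these are matches of letters, not measured binding sites.

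Values are MAS 4 average differences, in which mismatch probe signal is subtracted from perfect match signal, in linear intensity units, and some are negative. The noise SD, estimated from all negative values, was 524. Values under 2 noise SD, or 1048, were set to this floor, and a fold against such a value is a bound. A probe set is called measured on an array where its value was above the floor. With 1 array per condition there is no spread between cultures and no test. The error given beside a fold is its range when both values are moved by 1 noise SD toward or away from each other, which covers this noise only. The ranges use 524 for every array. Estimated on single arrays, the noise SD ran from 448 on control 0 min to 614 on Omomer 90 min. At 90 min in the Omomer line, folds of probe sets measured on both arrays centred above 0, with medians between 0.23 and 0.32 on the log2 scale, and probe sets of the same gene differed by an SD of 0.73 to 0.75, against 0.29 to 0.31 in the other comparisons. The labelled cell type was borne out by 9 of 9 fibroblast markers measured on all arrays, with summed intensities from 405562 to 592836. Of 14 markers of leukocytes, endothelium, epithelium, hepatocytes and neurons with a probe set, 1, Snap25, was measured on all arrays.

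Psat1 was the member that differed most between the cell lines, and it did so at both times. The probe set rc_AI102868_g_at read 9572 in the control and 34373 in the Omomer line at 0 min, and 12192 and 41660 at 90 min. For rc_AI230228_at, made from a different expressed sequence tag, the values in the same order were 7622, 19439, 9119 and 23214. For rc_AI102868_at they were 2325, 10576, 3436 and 12511. Both Omomer arrays lay above both control arrays in all 3 probe sets. The share of all probe sets with this order was not counted, and nothing is read from it. The probe sets rc_AI102868_at and rc_AI102868_g_at are made from the same tag and are not independent. The remaining probe set, rc_AA850568_at, was negative on all 4 arrays, between -2339 and -775, and gives no fold.

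**Figure D1:**
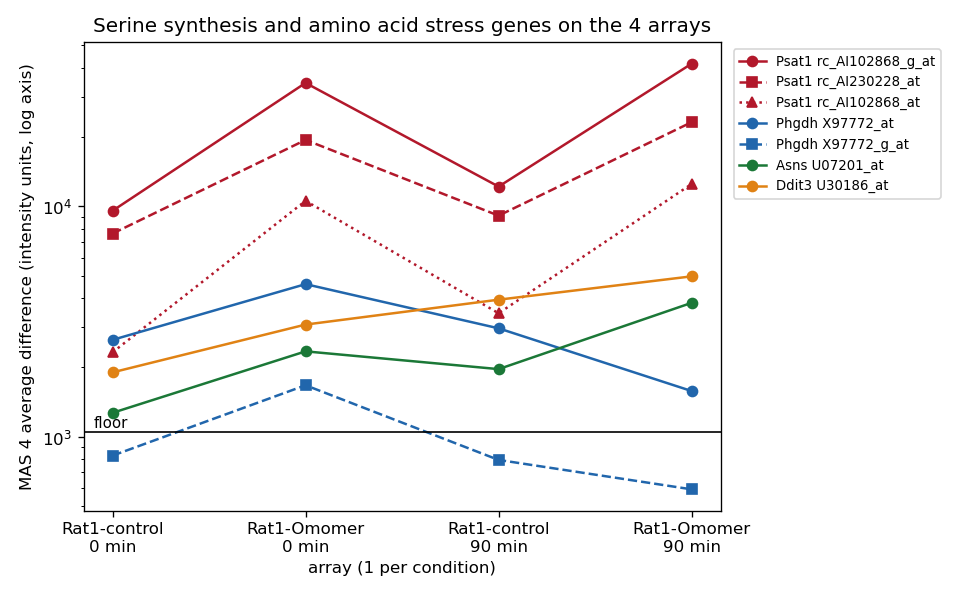
MAS 4 average difference on a log axis for the 7 probe sets above the floor on at least 1 array, with 1 point per array and lines joining the points of a probe set; the black line is the floor of 1048. The 3 Psat1 probe sets are high on both Omomer arrays, whereas Phgdh has its highest value on the Omomer 0 min array and its lowest on the Omomer 90 min array.

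At 0 min, Psat1 was 3.59-fold higher in the Omomer line by rc_AI102868_g_at (range with noise 3.35 to 3.86). It was 4.55-fold higher by rc_AI102868_at (3.53 to 6.16) and 2.55-fold higher by rc_AI230228_at (2.32 to 2.81). Among the 3475 probe sets measured on both arrays these folds held ranks 3, 2 and 14 from the highest. At 90 min, the Omomer over the control line gave 3.42-fold (3.23 to 3.62), 3.64-fold (3.03 to 4.48) and 2.55-fold (2.35 to 2.76). Averaged over the 3 probe sets, the log2 difference between the lines was 1.79 ± 0.42 at 0 min and 1.66 ± 0.28 at 90 min (SD among 3 probe sets, not among cultures). The difference between the lines was thus already there before serum.

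Serum was followed by little difference in Psat1 within either line. From 0 to 90 min the 3 probe sets were 1.2- to 1.48-fold higher in the control line and 1.18- to 1.21-fold higher in the Omomer line. The folds in the Omomer line lay at the middle of all probe sets of that comparison, of which 50.8% to 53.1% had a smaller fold. Those in the control line lay higher among all probe sets, of which 74.3% to 88% had a smaller fold. Relative to the control line at 0 min, the reference of the study, the Omomer line at 90 min had 4.35-fold (4.07 to 4.66), 5.38-fold (4.21 to 7.24) and 3.05-fold (2.79 to 3.34) more Psat1 signal.

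Phgdh, the enzyme before Psat1 in the pathway, shared the higher value at 0 min but not that at 90 min. By X97772_at it read 2634 in the control and 4598 in the Omomer line at 0 min, and 2956 and 1579 at 90 min. It was 1.75-fold higher in the Omomer line at 0 min (1.29 to 2.43) and 1.87-fold lower in these cells at 90 min. The Omomer line thus held both the highest and the lowest of the 4 values. Within the Omomer line the value at 90 min was 2.91-fold lower than at 0 min, with a ratio of 0.343 (0.206 to 0.516), just short of 3-fold, while the control line gave 1.12-fold higher (0.77 to 1.65).

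The other probe sets of Phgdh add little. X97772_g_at, made from the same sequence, read 828, 1673, 793 and 591 in the same order. Only the Omomer 0 min value was above the floor, so that Phgdh was at least 1.6-fold higher there than in the control line at 0 min and than in the Omomer line at 90 min. The 3rd probe set, rc_AI008677_s_at, was negative on all arrays, between -1529 and -1143. The difference between the 2 serum responses of X97772_at, Omomer minus control, was -1.71 on the log2 scale, against a median of 0.27 and an SD of 1.03 over the 2600 probe sets measured on all arrays. Of these, 6.54% had a lower value, and the array that sets this result, Omomer at 90 min, has the largest share of negative values, 27.7% against 24.8% to 26.2% on the others. Their part in this result was not tested.

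Asns had its lowest value in the starved control line and its highest in the serum-treated Omomer line. U07201_at read 1270 in the control and 2348 in the Omomer line at 0 min, and 1966 and 3814 at 90 min. The line and serum each went with a higher value. Asns was 1.85-fold higher in the Omomer line at 0 min (1.02 to 3.85) and 1.94-fold higher at 90 min (1.32 to 3.01). Serum gave 1.55-fold in the control line (0.804 to 3.34), a range that includes no difference, and 1.62-fold in the Omomer line (1.15 to 2.38). The log2 serum folds of the lines, 0.63 and 0.70, differed by 0.07.

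Taken over both steps, Asns was 3-fold higher in the Omomer line at 90 min than in the control line at 0 min (1.83 to 5.82). This fold sits at the threshold, and its denominator is close to the floor. With a floor of 2096 its log2 value was 0.86 in place of 1.59, and with median scaling it was also under 3-fold. The log2 fold of Asns between the lines at 0 min also depended on the floor. With a floor of 2096 it was 0.16, a bound, in place of 0.89.

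Ddit3 was higher at 90 min than at 0 min in both lines, and higher in the Omomer than in the control line at both times. U30186_at read 1903 in the control and 3069 in the Omomer line at 0 min, and 3936 and 4970 at 90 min. All 4 values were above the floor, and both 90 min values lay above both 0 min values, an order whose share over all probe sets was not counted. Serum gave 2.07-fold in the control line (1.41 to 3.23), a larger fold than 95.4% of the 3248 probe sets measured on both arrays. In the Omomer line it gave 1.62-fold (1.24 to 2.16), a larger fold than 77.1% of probe sets. The lines differed by 1.61-fold at 0 min (1.05 to 2.61), a larger fold than 96.7% of probe sets. This range overlaps those of both serum folds. At 90 min the lines differed by 1.26-fold (0.997 to 1.61). The latter range includes no difference, and the log2 fold of 0.34 was close to the median of 0.32 over all probe sets in that comparison. The serum responses of the lines differed by -0.35 on the log2 scale.

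**Figure D2:**
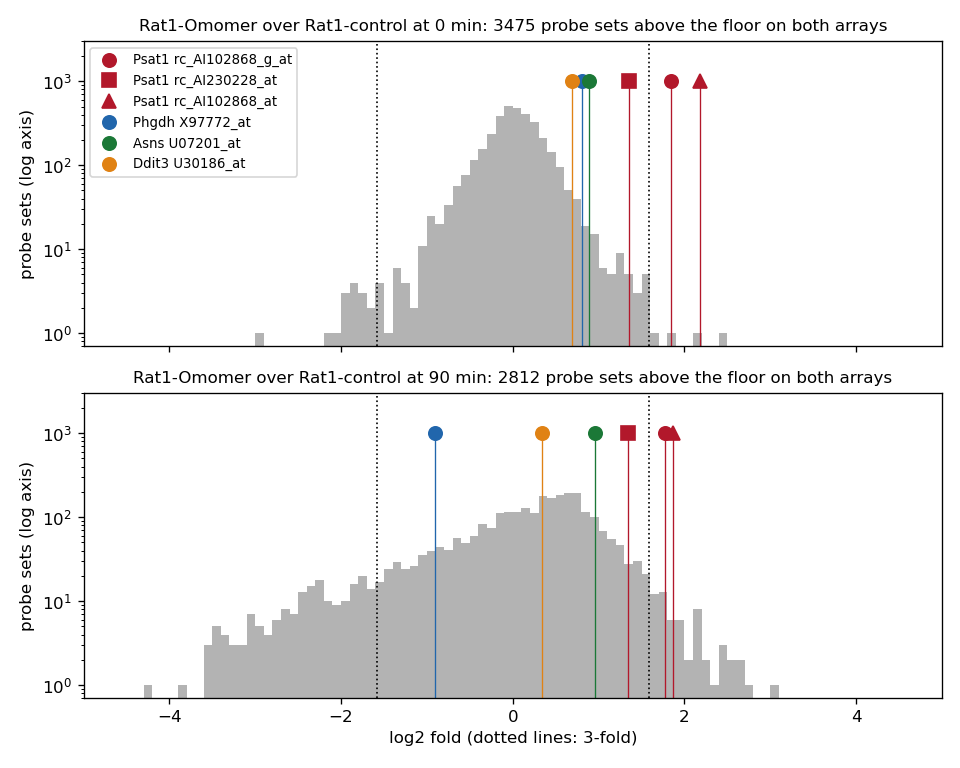
Histograms of log2 folds of the Omomer over the control line at 0 min (top) and 90 min (bottom) for all probe sets measured on both arrays, with counts on a log axis; coloured marks are the 6 probe sets of Psat1, Phgdh, Asns and Ddit3, placed at their fold and at an arbitrary height, and dotted lines mark 3-fold. All 6 lie to the right of 0 at 0 min, and Phgdh lies to the left at 90 min.

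At 0 min the 4 genes thus lay on the same side. All 6 probe sets measured on both arrays were higher in the Omomer line, with log2 folds from 0.69 to 2.19 and a median of 1.12, against a median of 0.01 over all 3475. Of 7 probe sets with a fold, 2 were higher by 3-fold or more, both of Psat1, and 0 were lower by 3-fold or more. Over all 3977 probe sets with a fold the shares were 0.251% higher and 0.503% lower; since the genes were chosen by these values, nothing is read from the difference. The lowest of the 6, Ddit3, had a larger fold than 96.7% of probe sets.

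At 90 min the genes diverged between the lines. Of 6 probe sets with a fold, 2 were higher by 3-fold or more in the Omomer than in the control line, again of Psat1, and 0 were lower by 3-fold or more, with background shares of 2.22% and 8.57%. The median of the 6 was 1.15, against 0.32 over all probe sets. Relative to this median, Psat1 was higher by 1.03 to 1.54 on the log2 scale and Asns by 0.64, Ddit3 by 0.02, and Phgdh was at -1.22.

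No member probe set passed 3-fold with serum in either line, Phgdh in the Omomer line, 2.91-fold lower, and Ddit3 in the control line, 2.07-fold higher, coming nearest. In the control line, 0 of 6 probe sets passed 3-fold in either direction, with background shares of 1.93% higher and 1.81% lower, and all 6 were above 0, with a median of 0.46. In the Omomer line, 0 of 7 passed 3-fold, with background shares of 2.9% and 9.65%, and the median of the 6 measured on both arrays was 0.27. Against the control line at 0 min, 4 of 6 probe sets were higher by 3-fold or more in the Omomer line at 90 min, 3 of Psat1 and that of Asns, and 0 were lower by 3-fold or more, with background shares of 2.8% and 9.95%. Comparisons with a common array are not independent of each other.

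**Figure D3:**
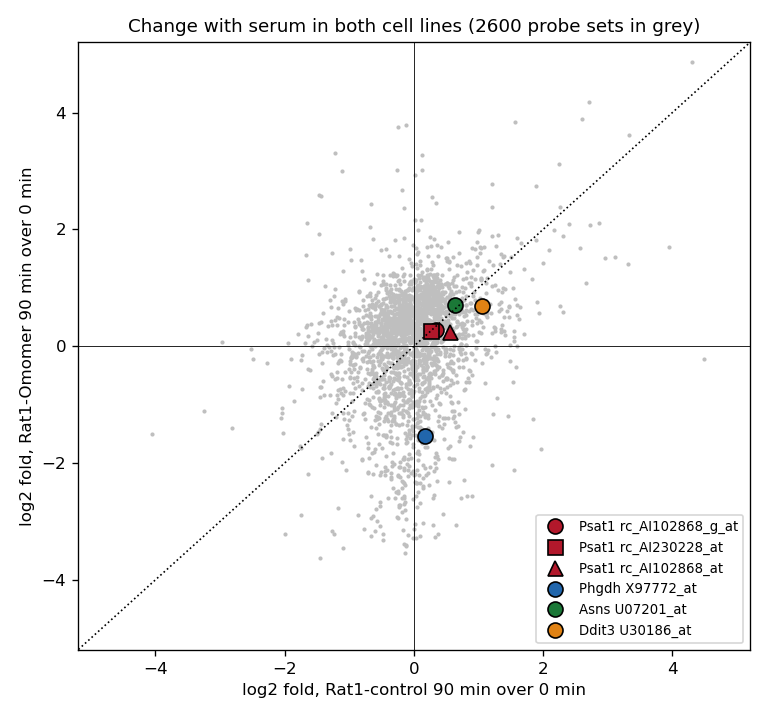
Log2 fold of 90 min over 0 min in the control line (horizontal) and the Omomer line (vertical) for 2600 probe sets measured on all 4 arrays in grey and the 6 probe sets of Psat1, Phgdh, Asns and Ddit3 in colour; on the dotted diagonal both lines respond alike. Psat1, Asns and Ddit3 lie at or near the diagonal, and Phgdh lies below it, at 0.17 and -1.54.

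The profiles of the members over the 4 arrays were compared by the root mean square (RMS) difference of log2 values, each centred on its own mean, with the brightest probe set of each gene. Asns and Ddit3 were the closest pair at 0.25, followed by Psat1 and Asns at 0.48. Psat1 and Ddit3 stood 0.71 apart, and Phgdh was between 0.90 and 1.13 from the others. The nearest genes are given as a description over 4 arrays. Among the 2120 named probe sets measured on all arrays, the nearest to Psat1 were Col11a1 (RMS 0.29), a fibrillar collagen, with 4290, 10383, 4807 and 11178 in the same order, the mitochondrial superoxide dismutase Sod2 (0.32) and Fkbp3 (0.38). The nearest to Ddit3 were Lrrc59 (0.09), the endoplasmic reticulum chaperone Canx (0.10) and Slc7a5 (0.10), the light chain of a leucine transporter. Asns was nearest to Cyp2d4 (0.06), Plekho1 (0.07) and Pcna (0.09), the sliding clamp of DNA replication, and Phgdh to Copz2 (0.09), the proteoglycan Bgn (0.12) and Mrpl23 (0.15). Copz2 and Bgn were measured by rc_AA893634_at and rc_AA859830_s_at. Tag-derived probe sets with names that start with rc_AA include series, described below, that were often low in the Omomer line at 90 min. Any part of this in the match was not tested.

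Other genes of the response were taken from lists chosen for the pathway with earlier results of these data known. Of 24 further Atf4 targets, 11 had a probe set, 20 probe sets in all. At 0 min, 0 of the 15 with a fold differed by 3-fold or more between the lines, and the 14 measured on both arrays had a median log2 fold of -0.04. The largest difference was that of Trib3, a pseudokinase that binds Atf4 and Ddit3. It read 1187 in the control and 3250 in the Omomer line at 0 min, and 2840 and 3903 at 90 min by rc_H31287_g_at, 2.74-fold higher in the Omomer line at 0 min. Its other probe set was under the floor on every array. Eif4ebp1, an inhibitor of cap-dependent translation, was 1.34- to 1.69-fold higher by 3 probe sets at 0 min. Other targets lay on the opposite side: the C/EBP family member Cebpb was 1.48-fold and 1.44-fold lower and the haem oxygenase Hmox1 1.29-fold and 1.08-fold lower, by 2 probe sets each.

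At 90 min, 4 of 16 probe sets of Atf4 targets were higher by 3-fold or more than in the control line at 0 min and 0 lower by 3-fold or more, with background shares of 2.8% and 9.95%. The 14 measured on both arrays had a median of 0.92, against 0.26 over all probe sets. The 4 were 2 of Ppp1r15a (GADD34), which recruits the phosphatase that reverses eIF2 phosphorylation, with 3.29-fold and 4.68-fold, Trib3 with 3.29-fold, and Cebpg, a bZIP partner of Atf4, with 3.01-fold. The 2 probe sets of Ppp1r15a are made from the same sequence and are not independent. All 4 folds join serum and cell line. With serum in the control line, Ppp1r15a was 1.86-fold and 2.31-fold, Trib3 2.39-fold and Cebpg 1.15-fold higher. Cebpg read 1282, 1183, 1475 and 3859 in the same order, so that only the Omomer 90 min value stood apart. Of 17 probe sets with a fold between the lines at 90 min, 1 was higher and 2 were lower by 3-fold or more in the Omomer line. The background shares were 2.22% and 8.57%. The stress protein Nupr1 was 3.28-fold higher in the Omomer than in the control line at 90 min, where it read 38075 and 11602. Vegfa, the vascular growth factor, was high in the control line at 90 min. There rc_AA850734_at, which read 2909, 2552, 10454 and 1082, was 3.59-fold higher than at 0 min, and L20913_s_at was at least 6.04-fold higher than in the Omomer line at 90 min. Within the Omomer line the probe sets of Vegfa differed: from 0 to 90 min rc_AA850734_at was 2.36-fold lower, to a value near the floor, M32167_g_at was at least 1.09-fold higher, and L20913_s_at, with 630 and 866, stayed under the floor.

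Amino acid transporters were represented by 21 probe sets of 10 genes, and 9 of these probe sets were above the floor on any array. At 0 min, 0 of 7 with a fold passed 3-fold, and the 5 measured on both arrays had a median of 0.58, all 5 above the median of all probe sets. Slc7a1, the cationic amino acid transporter, went with serum. U70476_at read 509 in the control and 1419 in the Omomer line at 0 min, and 4243 and 5100 at 90 min, at least 4.05-fold higher with serum in the control line and 3.59-fold higher in the Omomer line. Another probe set, rc_AA957917_s_at, was at least 3.59-fold and at least 5.85-fold higher, and L10152_s_at 1.39-fold and 2.1-fold. The glutamate transporter Slc1a3 was 3.81-fold higher in the Omomer line at 90 min than in the control line at 0 min by X63744_at alone. Its values were 1063, 1835, 2175 and 4047, the first close to the floor. The other Slc1a3 probe sets did not share this. X63744_g_at, made from the same sequence, and S75687_s_at were negative on all arrays. S59158_at read 427, 1149, 1143 and 670, under the floor in the Omomer line at 90 min. Slc7a5 was 1.5-fold higher in the Omomer line at 0 min and 2.13-fold higher with serum in the control line.

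**Figure D4:**
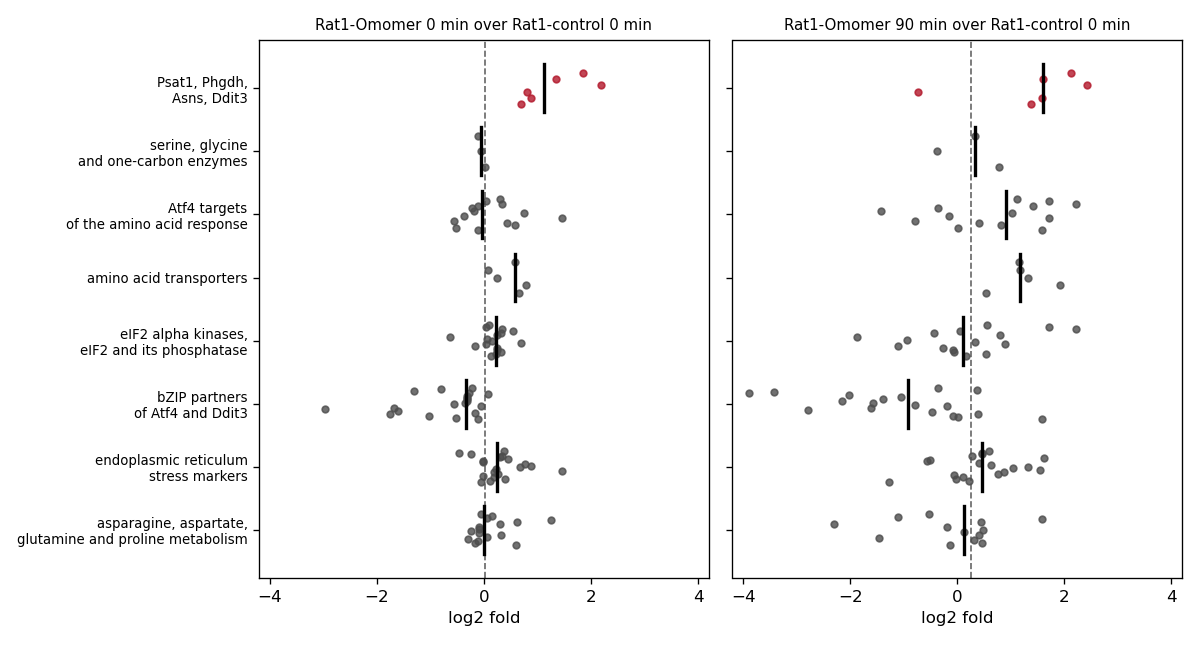
Log2 folds of the Omomer line at 0 min (left) and 90 min (right) over the control line at 0 min for probe sets measured on both arrays; points are probe sets, short black bars are the median of each group, and the dashed line is the median of all probe sets. Psat1, Phgdh, Asns and Ddit3 are in red in the top row, and at 0 min transporters had a median of 0.58 and bZIP partners one of -0.34.

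The enzymes next to Psat1 in metabolism were sparsely represented. Of 18 serine, glycine and one-carbon genes, 7 had a probe set, and Psph and the hydroxymethyltransferases Shmt1 and Shmt2 had none. The 3 probe sets measured on both arrays at 0 min, Mat2a, Ahcy and Cbs, had log2 folds of -0.12, -0.05 and 0.03, and 0 of the list passed 3-fold in any comparison. Of enzymes of asparagine, aspartate, glutamine and proline metabolism, 0 of 17 probe sets with a fold passed 3-fold at 0 min. Against the control line at 0 min, 3 of 18 were lower by 3-fold or more and 1 higher by 3-fold or more in the Omomer line at 90 min, with background shares of 9.95% and 2.8%. Without the tag-derived series described below, 1 of 14 was lower, against 4.36% of all probe sets outside these series. Lower were Got2, the mitochondrial aspartate aminotransferase, which read 11983, 14739, 9821 and 2424, and Asnsd1. Asnsd1 was lower by 2 probe sets made from the same tag, at least 5.2-fold by the brighter one. Higher was Gpt, alanine aminotransferase, at least 3.62-fold by D10354_s_at. It read -1372, -2763, 482 and 3790, above the floor on the Omomer 90 min array alone. Got1, the cytosolic counterpart of Got2, read 6275 in the control and 1792 in the Omomer line at 90 min.

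Factors around eIF2 and the partners of Atf4 and Ddit3 went different ways. Of 18 probe sets of eIF2 kinases, subunits and phosphatases with a fold at 0 min, 0 passed 3-fold, and the 17 measured on both arrays had a median of 0.22. Eif2ak2, the kinase activated by double-stranded RNA, read 4515 and 2903 at 0 min and 1085 and 1236 at 90 min, low with serum in both lines. Eif2ak3, the kinase of the endoplasmic reticulum, was 1.46-fold and 1.24-fold higher in the Omomer line at 0 min by 2 probe sets. At 90 min it was 1.52-fold and 1.32-fold lower in the Omomer line by the same 2. Eif2b3, a subunit of the exchange factor for eIF2, was at least 4.47-fold lower in the Omomer than in the control line at 90 min by rc_AI639441_at, but 1.22-fold lower by U38253_at. Of 22 probe sets of bZIP partners with a fold at 0 min, 4 were lower by 3-fold or more and 0 higher by 3-fold or more in the Omomer line. The background shares were 0.503% lower and 0.251% higher. The 20 measured on both arrays had a median of -0.34. The 4 lower ones measure the immediate early genes Fos and, by X17163cds_s_at alone, Jun. Of those of Fos, X06769cds_at and X06769cds_g_at are made from the same sequence and are not independent. Other Jun probe sets differed little at 0 min. The brightest, rc_AI175959_at, and rc_AA945867_at were each 1.25-fold lower, and rc_AA944014_at was 1.06-fold higher.

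At 90 min, Junb and Maf were 10.7-fold and 14.8-fold lower than in the control line at 0 min by rc_AA891041_at and rc_AA893082_at, but 1.06-fold and 1.14-fold lower by X54686cds_at and U56242_at. The first pair, like the Vegfa and Asnsd1 sets whose names start with rc_AA, belongs to 5 series of tag-derived probe sets, grouped with earlier results known, of which 28.9% of 963 with a fold were lower by 3-fold or more in the Omomer line at 90 min, against 4.36% of 3257 others. Of the 9 probe sets of the members, 1 belongs to these series, rc_AA850568_at of Psat1, which gives no fold.

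Markers of endoplasmic reticulum stress, a further trigger of Ddit3, were high with serum in the control line. Of 20 probe sets measured on both arrays, 19 lay above the median of all, and their median was 0.63. Of 21 with a fold, 2 were higher by 3-fold or more and 0 lower by 3-fold or more, with background shares of 1.93% and 1.81%. The 2 higher ones both measure Hspa5 (BiP), the main chaperone of the compartment. By M14050_s_at it read 19593 in the control and 24190 in the Omomer line at 0 min, and 64018 and 60140 at 90 min. Hspa5 thus differed more with serum than between the lines by this probe set. By S63521_i_at Hspa5 was 4.8-fold higher with serum in the control line and 1.62-fold higher in the Omomer line. By the same probe set it was 2.62-fold lower in the Omomer than in the control line at 90 min. The 19 marker probe sets measured on both arrays in that comparison had a median of -0.10, against 0.32 over all probe sets. At 0 min, 0 of 20 marker probe sets passed 3-fold between the lines, with a median of 0.25, and Canx was 1.26- to 2.74-fold higher in the Omomer line by 5 probe sets. Dnajb9, a cochaperone of Hspa5, read 2812, 3307, 6915 and 758, at least 6.6-fold lower in the Omomer than in the control line at 90 min.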

How the data were processed

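RNA of 4 samples, 1 per condition, was measured on Affymetrix RG-U34A arrays. The authors processed the scans with MAS 4 at default settings and deposited 1 average difference per probe set and array, an intensity on a linear scale. Trimmed means of the arrays, between 2503 and 2505, show that they had been scaled. Of 8799 probe sets, 59 manufacturer controls were left out. Of the other 8740, 7006 have 1 gene symbol in the platform's annotation, 308 several and 1426 none, and 6985 of the 7006 matched a RefSeq gene. The floor was 1048 (2 noise SD), folds are ratios of floored values, and the 3-fold threshold and the reference are those of the paper's methods. These ratios are not the MAS 4 Fold Change. Labels and methods differ on how long before serum 4-OHT was given, so that its duration is not settled. With 1 array per condition no test was run, and precision is limited by the number of arrays.

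Members, lists, motifs and sequence windows were chosen with earlier results of these data known. Of each list, genes at least 3-fold different in any of 5 comparisons were named by their brightest probe set, up to 6 per list. For each member with values spanning at least 1 on the log2 scale, the 3 nearest profiles were named. Further genes (Eif4ebp1, Cebpb, Hmox1, Slc7a5, Canx, Eif2ak3, Mat2a, Ahcy, Cbs) and other probe sets were named after their values were seen. Calls were tested on simulated data. Alternatives were 3 other floors, median scaling, quantile normalization, leaving out bounds, a fold computed from the difference as in MAS 4, and 1 probe set per gene. Python 3.11.15, numpy 2.4.6, pandas 2.3.3, scipy 1.17.1 and matplotlib 3.10.9 were used.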

Additional observations from a re-analysis of the deposited data

How the results depend on the processing

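Counts of members past 3-fold stayed within 1.5 times the reported count under every alternative run, except as follows. With 1 probe set per gene, 1 was higher by 3-fold or more in the Omomer line at 0 min, 2 at 90 min against the control line at 0 min, and 1 at 90 min against the control line at 90 min, since Psat1 then counts once. With median scaling, 2 were higher by 3-fold or more at 90 min against the control line at 0 min, since the folds of Asns and of rc_AI230228_at of Psat1 lie at the threshold. Of 186 log2 values of single probe sets under 5 alternatives, 185 kept their sign. The exception was the serum fold of rc_AI102868_g_at of Psat1 in the Omomer line, -0.09 with quantile normalization in place of 0.28. Leaving out the tag-derived series from the list counts was chosen after seeing the data. No paired analysis was possible because each condition has 1 array.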
